A study of Musca domestica with 16 samples.

Results

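The genes described here are the 41 genes of the house fly, Musca domestica, that the authors' deposited table places on the X chromosome by scaffold, out of 14631 genes in the table and 11231 with a chromosome by scaffold. Membership rests on that assignment alone, and no expression value entered it, but the genes were chosen with earlier results of these data known. In house flies a dominant gene makes males, and strains differ in which chromosome carries it. The standard sex chromosomes are small and rich in heterochromatin, and the X corresponds to Muller element F, the dot chromosome of Drosophila. Males whose determiner is on the Y carry the Y beside an X, whereas males with the determiner on an autosome need no Y. A change in the number of X copies is therefore one way in which male genotypes can differ, and the labels give no karyotype for these flies.

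RNA was sequenced from 2 strains kept at 25 °C. Strain CSaY provided males with the determiner on the Y, called YM males here, and strain CS provided males with the determiner on chromosome III, called IIIM males. Unmated adults aged 4 to 6 days gave YM testes, IIIM testes, YM male heads and IIIM male heads with 3 libraries each, and CSaY ovaries, CS ovaries, CSaY female heads and CS female heads with 1 library each. The table gives 1 FPKM value per group, a level scaled for transcript length and library size, and no spread between libraries can be given. A gene is called different where the q in the authors' deposited table lies below 0.05, and log2 fold changes are of FPKM + 1. The ovary label was checked with 1 marker, bcd, a maternal gene of the egg in Drosophila. The level of bcd was 249.7 and 252.5 FPKM in CSaY and CS ovaries and 0.577 and 1.96 FPKM in YM and IIIM testes. It was listed at 0 in all 4 head groups, and no testis or head marker is given. None of the 41 genes has an informative symbol in the RefSeq name table, which holds 34 of them, and none of the 53 names on a list of Drosophila element F genes was matched. The genes are therefore given by identifier, and no function is given.

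The evidence that these 41 genes lie on the X was thin when read from their Drosophila orthologs. The genes lie on 7 scaffolds, and each scaffold holds exactly 1 gene whose single-copy ortholog lies on element F. Those 7 genes are X by both assignments: LOC101890049, LOC101889606, LOC101891311, LOC101887559, LOC101888253, LOC101892220 and LOC101890893. A further 5 genes have a single-copy ortholog on another element and would lie elsewhere by ortholog, namely LOC101887838 on chromosome 1, LOC101889711 on 2, LOC101891999 on 3, LOC101891655 on 4 and LOC101892048 on 5. The other 29 have no ortholog-based chromosome. Where both assignments exist they agreed for 58.3% of the 12 X genes, against 94.1% of 4230 genes on chromosomes 1, 2 and 4 together.

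Of the 7 scaffolds, 4 held such a conflict. NW_004765840 and NW_004765193 hold 12 X genes each, and NW_004764627 holds 2, and on each of them 1 ortholog of element F stands beside 1 of another element. NW_004765520 holds 11 X genes, with 1 ortholog of element F and 2 of other elements. In all 37 of the 41 genes lie on these 4 scaffolds, and 4 lie on the 3 scaffolds with no such conflict. Conversely, 29 genes of the table have a single-copy ortholog on element F, and only 7 of them are placed on the X by scaffold, 17 on other chromosomes and 5 on none. The 41 genes are called X-assigned below for this reason.

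Many of the X-assigned genes belong to 1 expanded family. Single-copy orthologs made up 12 of the 41 (29.3%), against 62.3% of the 6804 genes on chromosomes 1, 2 and 4. Genes present in several house fly copies for 1 Drosophila gene made up 17 (41.5%), against 8.80%. Of these, 15 belong to 1 ortholog group, whose Drosophila gene is FBgn0033310, and the table holds no other member of that group. Its 15 copies form 2 arrays, 8 copies on NW_004765840 between positions 36815 and 81128 and 7 copies on NW_004765193 between positions 17338 and 67681. A different group, many-to-many with Drosophila, has 4 of its 25 genes side by side on NW_004765520. No source used here says how reads were shared out among such copies, and the levels of single copies are uncertain for that reason. The pair LOC101893369 and LOC101892677 also share 1 locus.

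The X-assigned genes were expressed in all tissues, most often in testis, as were the genes on chromosomes 1, 2 and 4. At least 1 FPKM was reached by 35 of the 41 in YM testes and 34 in IIIM testes, 31 in YM and 29 in IIIM male heads, 24 in the ovaries of each strain, and 30 in the female heads of each strain. The matching shares for X and for chromosomes 1, 2 and 4 together were 85.4% and 77.6% in YM testes, 82.9% and 77.5% in IIIM testes, 75.6% and 71.6% in YM male heads, and 70.7% and 71.4% in IIIM male heads. In females they were 58.5% and 60.0% in CSaY ovaries, 58.5% and 59.2% in CS ovaries, 73.2% and 70.8% in CSaY female heads, and 73.2% and 70.5% in CS female heads. The median level over the 41 genes was 12.6 FPKM in both YM and IIIM testes, 6.02 and 4.33 FPKM in YM and IIIM male heads, 6.09 and 4.28 FPKM in CSaY and CS ovaries, and 4.21 and 4.62 FPKM in CSaY and CS female heads. On chromosomes 1, 2 and 4 the median was 10.6 FPKM in both YM and IIIM testes, 8.07 and 7.83 FPKM in YM and IIIM male heads, 7.21 and 7.07 FPKM in CSaY and CS ovaries, and 6.70 FPKM in the female heads of each strain. Over all 41 genes the X median was thus the higher one in testes and the lower one in the other tissues. That order depended on the genes taken. Over the 12 single-copy orthologs the X median was the higher one in every group, for instance 48.8 and 38.7 FPKM in YM and IIIM male heads. Single-copy orthologs on chromosomes 1, 2 and 4 stood there at 12.6 and 12.7 FPKM. Outside the 15-copy group the X median was 8.43 and 7.84 FPKM in CSaY and CS female heads, but 0.420 and 0.209 FPKM in CSaY and CS ovaries. Levels were scaled by the authors within each column, and columns of the sexes differ in scale. Of the 39 genes whose mean over the strains reached 1 FPKM in at least 1 tissue, 16 were highest in testis, 13 in ovary, 7 in male heads and 3 in female heads. Testis was the only tissue at or above 1 FPKM for 8 of them (20.5%), against 9.48% of such genes on chromosomes 1, 2 and 4. No X-assigned gene was limited in this way to ovary or to female heads, where the shares on chromosomes 1, 2 and 4 were also low, at 0.972% and 0.836%.

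The most abundant X-assigned gene was LOC101888253, with 1739 and 824 FPKM in YM and IIIM testes, 272 and 313 FPKM in YM and IIIM male heads, 7.52 and 4.28 FPKM in CSaY and CS ovaries, and 169 and 144 FPKM in CSaY and CS female heads. It was thus abundant in testis and head and low in ovary. LOC101889883 was abundant everywhere, with 427 and 345 FPKM in YM and IIIM testes, 285 and 266 FPKM in YM and IIIM male heads, 86.0 and 79.2 FPKM in CSaY and CS ovaries, and 204 and 213 FPKM in CSaY and CS female heads. LOC101889606, X by both assignments, varied little across the 8 groups, between 80.1 FPKM in CS ovaries and 134.9 FPKM in IIIM male heads. LOC101892048 led in ovary, with 178.6 and 187.8 FPKM in CSaY and CS ovaries, followed there by LOC101891999, LOC101890893, LOC101889883 and LOC101889606. LOC101891825 was high in heads and testes and lower in ovaries. It stood at 197.7 and 278.4 FPKM in YM and IIIM male heads and at 150.2 and 188.5 FPKM in YM and IIIM testes. In CSaY and CS ovaries it stood at 62.8 and 62.3 FPKM. LOC101890498 had the highest mean in female heads, with 293.05 and 141.3 FPKM in the CSaY and CS libraries. That rank rests on the CSaY library, since LOC101889883, LOC101891825 and LOC101888253 lay above it in the CS library.

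**Figure D1:**
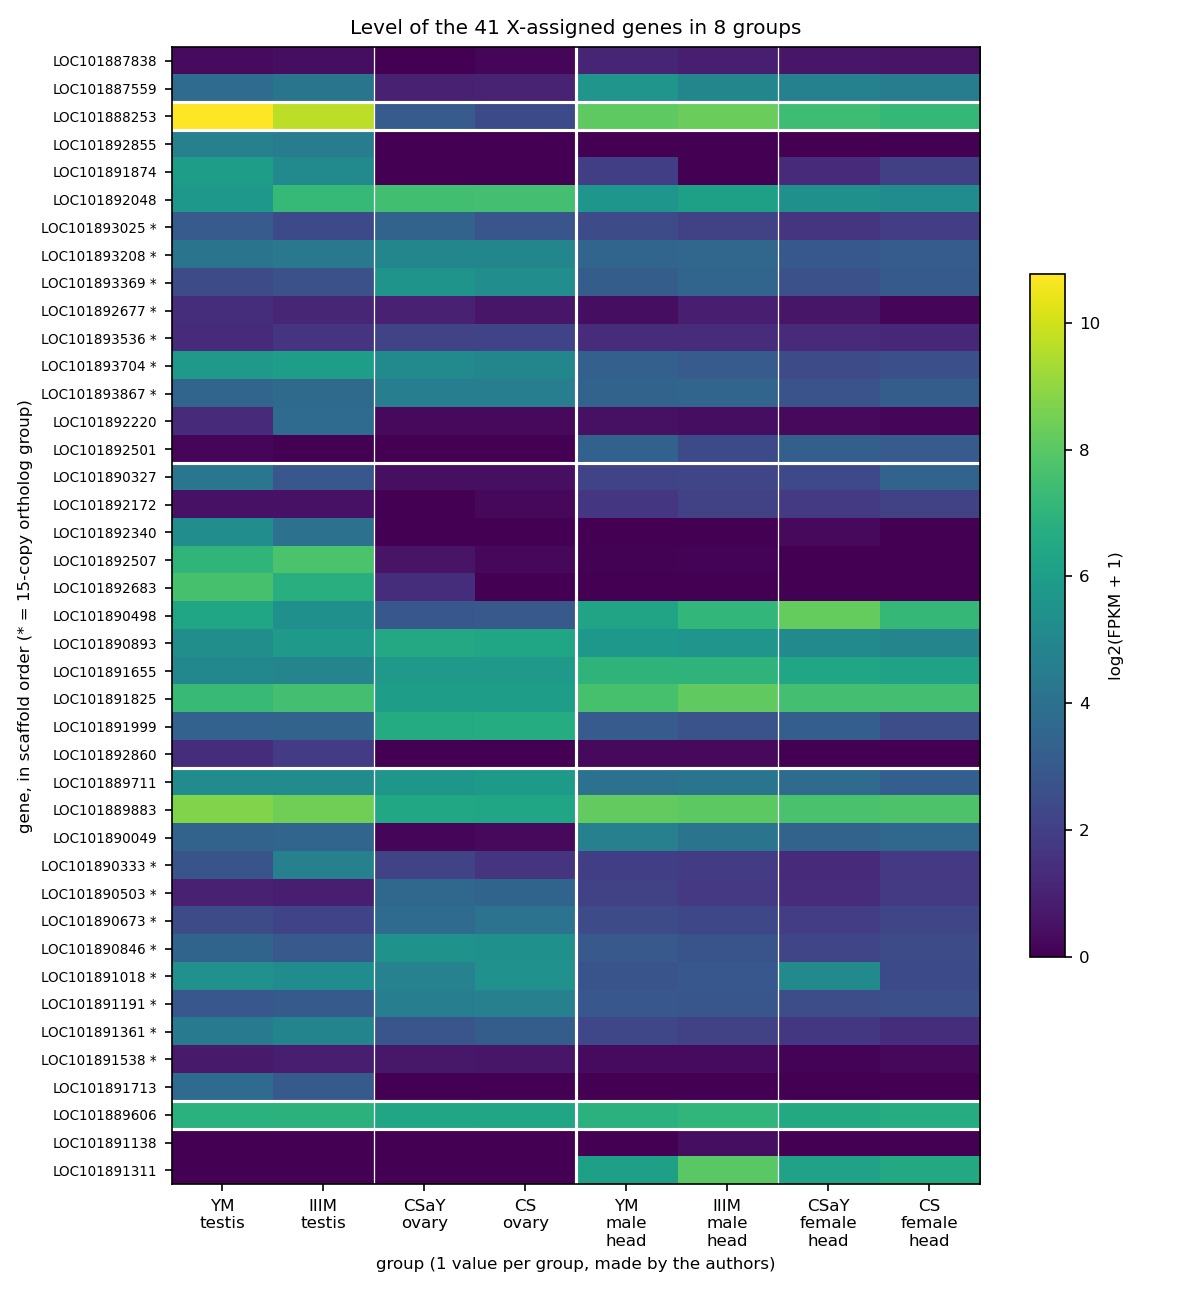
Level of each of the 41 X-assigned genes as log2(FPKM + 1) in the 8 groups, with genes in scaffold order, white lines between scaffolds and asterisks on the 15-copy ortholog group. LOC101888253 reaches 1739 FPKM in YM testes, and LOC101891311 is at 68.5 to 258.5 FPKM in heads and listed at 0 in testes and ovaries.

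The testes of YM and IIIM males differed at 12 X-assigned genes, 8 higher and 4 lower in YM testes. The largest rises in YM testes were those of LOC101890327 (2.67-fold), LOC101892340 (2.44-fold) and LOC101888253 (2.11-fold). The deepest falls were those of LOC101892220 (8.51-fold), LOC101890333 (4.13-fold) and LOC101892048 (2.86-fold). The authors had tested 34 of the 41 genes, so 35.3% were called, beside 13% of all 10275 genes tested and 9.35% of the 5241 tested on chromosomes 1, 2 and 4. By direction, 23.5% of the X-assigned genes were higher in YM testes, beside 7.61% of all tested genes, and 11.8% were lower, beside 5.41%. The genes are neighbours on few scaffolds and share copies, so they are not independent, and their share was not tested against the background. Among the 29 genes that are X by ortholog, 4 of 28 tested were called in testes (14.3%), near the share of all tested genes. In whole testes, as in every tissue here, fewer cells of a type and less RNA per cell cannot be told apart.

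Calls in testes lay on 4 of the 7 scaffolds. On NW_004765520 4 of 10 tested genes were higher and 1 was lower. LOC101890327 stood at 17.5 FPKM in YM testes, against 6.54 FPKM in IIIM testes, and LOC101892340 at 37.7 FPKM in YM and 15.5 FPKM in IIIM testes. LOC101892683 was at 197.2 FPKM in YM and 107.7 FPKM in IIIM testes, a 1.83-fold difference, and LOC101890498 at 78.8 FPKM in YM and 41.2 FPKM in IIIM testes. The exception on this scaffold was LOC101892507, at 132.3 FPKM in YM and 208.3 FPKM in IIIM testes, which belongs to the same ortholog group as LOC101890327 and LOC101892340. Members of this group of neighbours thus moved in both directions. The remaining member, LOC101892172, was below 1 FPKM in testes and had no q.

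On NW_004765193 2 of 11 tested genes were higher and 2 were lower in YM testes. LOC101891874 rose to 63.0 FPKM in YM testes, against 34.2 FPKM in IIIM testes, and its neighbour and relative LOC101892855 stood at 25.8 FPKM in YM and 21.9 FPKM in IIIM testes without being called. LOC101893025, a copy of the 15-copy group, was at 7.44 FPKM in YM and 4.40 FPKM in IIIM testes. LOC101892220 fell to 1.48 FPKM in YM testes, against 12.6 FPKM in IIIM testes (q = 0.00107 in the authors' deposited table). LOC101892048 fell to 52.2 FPKM in YM testes, against 149.2 FPKM in IIIM testes. On NW_004765840 LOC101891713, a gene with no Drosophila ortholog listed, was at 12.8 FPKM in YM and 7.37 FPKM in IIIM testes, and the copy LOC101890333 fell to 6.03 FPKM in YM testes, against 24.9 FPKM in IIIM testes. LOC101888253 is the only annotated gene of NW_004765069 in the table, and it was 2.11-fold higher in YM testes.

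Of the 12 genes called in testes, 9 were highest in testis, 2 (LOC101892048 and LOC101893025) in ovary and 1 (LOC101890498) in female heads. Among the 22 tested genes that were not called, log2 fold changes ran from -0.45 to 0.46. The median over all 34 tested X-assigned genes was -0.02, with 15 above and 19 below 0, beside -0.0040 on chromosomes 1, 2 and 4 and 0.02 over all tested genes. The median absolute log2 fold change was 0.36 on the X and 0.21 on chromosomes 1, 2 and 4. The X-assigned genes as a set thus stood near 0 in testes, with larger changes of single genes in both directions. With a minimum of 2-fold, 6 of the 12 calls remained, 3 in each direction. The share of all tested genes at that minimum was not computed, so this count has no background beside it.

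**Figure D2:**
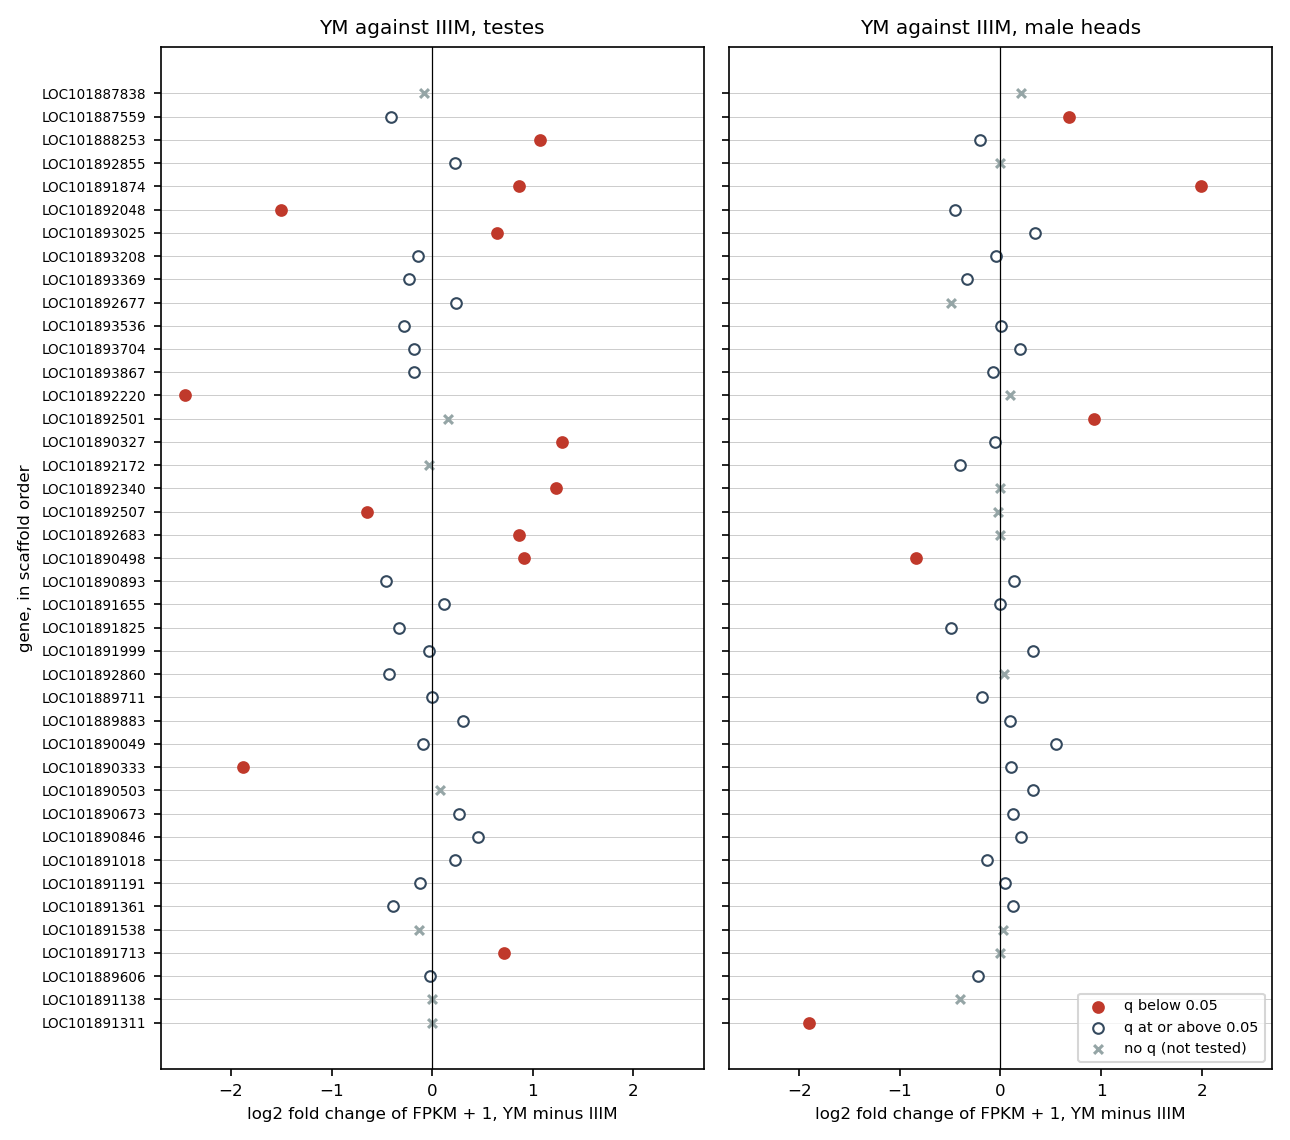
Log2 fold change of FPKM + 1, YM minus IIIM, of each X-assigned gene in testes (left) and male heads (right), with filled points for genes with q below 0.05, open points for other tested genes and crosses for genes without a q. The 12 calls in testes run from -2.46 (LOC101892220) to 1.29 (LOC101890327), and LOC101890498 lies on opposite sides of 0 in the tissues.

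Male heads differed at 5 X-assigned genes, 3 higher and 2 lower in YM heads. LOC101891311, an X gene by both assignments, had the deepest fall, to 68.5 FPKM in YM heads, against 258.5 FPKM in IIIM heads, 3.77-fold lower with q = 0.00138 in the authors' deposited table. Female heads lay near the YM level, at 72.7 and 90.6 FPKM in the CSaY and CS libraries, so the high value belongs to IIIM male heads. LOC101890498 fell 1.80-fold, to 77.0 FPKM in YM heads, against 138.9 FPKM in IIIM heads. LOC101887559, X by both assignments, rose 1.63-fold, to 47.9 FPKM in YM heads, against 29.4 FPKM in IIIM heads. LOC101892501 rose 2.12-fold, to 9.18 FPKM in YM heads, against 4.33 FPKM in IIIM heads, and LOC101891874 stood at 2.98 FPKM in YM heads and was listed at 0 in IIIM heads.

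These 5 calls came from 30 tested genes (16.7%), beside 9.25% of the 9441 genes tested and 6.60% of the 4834 on chromosomes 1, 2 and 4. Higher in YM heads were 10.0% of the X-assigned genes, beside 3.39% of all tested genes, and lower were 6.67%, beside 5.86%. Among the genes X by ortholog 3 of 27 tested were called in male heads (11.1%), near the share of all tested genes. The median log2 fold change over the 30 genes was 0.03, beside -0.02 on chromosomes 1, 2 and 4 and -0.0019 over all tested genes. All 5 genes lie outside the 15-copy group, whose 13 tested copies gave no call in heads. The nearest miss was LOC101890049, X by both assignments, at 24.9 FPKM in YM and 16.7 FPKM in IIIM heads with q = 0.0507 in the authors' deposited table.

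Of the 26 X-assigned genes tested in both male tissues, 2 were called in both. LOC101891874 was higher in YM males in testes and in heads. Its call in heads set 2.98 FPKM in YM heads against a listed 0 in IIIM heads, which may also stand for a failed estimate. In CSaY and CS female heads LOC101891874 stood at 1.41 and 3.07 FPKM. LOC101890498 was higher in YM testes, at 78.8 FPKM against 41.2 FPKM in IIIM testes, and lower in YM heads, at 77.0 FPKM against 138.9 FPKM in IIIM heads, so that its levels in YM testes and YM heads were nearly equal. The reversal itself was not tested, as no q covers strain and tissue together. Of the genes called in testes, 5 had no q in heads, namely LOC101892220, LOC101892340, LOC101892507, LOC101892683 and LOC101891713, all below 1 FPKM in both male head groups.

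Single female libraries gave 1 call among the X-assigned genes. LOC101891018, a copy of the 15-copy group, was at 33.7 FPKM in CSaY female heads and 4.36 FPKM in the CS ones (authors' deposited table, q = 0.0086), beside 6.02 and 6.68 FPKM in YM and IIIM male heads. This is 1 of 30 tested genes (3.33%), beside 0.772% of all genes tested between the female head libraries, 0.317% higher in CSaY. In ovaries 0 of 25 tested genes were called at q below 0.05, beside 0.358% of all tested genes, 0.306% higher and 0.0511% lower in the CSaY library. With 1 library per strain the authors' test compares those libraries, not the strains. Among genes called in testes, LOC101892048 was at 178.6 and 187.8 FPKM in CSaY and CS ovaries, LOC101890498 at 6.53 and 6.96 FPKM, and LOC101888253 at 7.52 and 4.28 FPKM. The median log2 fold change of CSaY minus CS was 0.02 over the 25 genes in ovaries and -0.10 over the 30 genes in female heads.

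**Figure D3:**
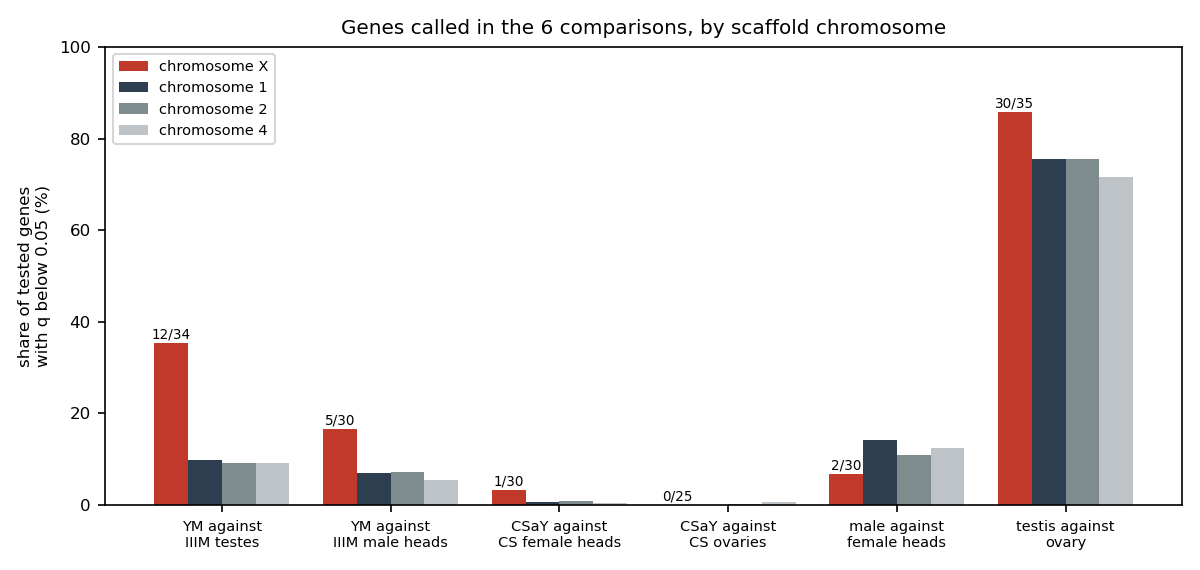
Share of tested genes with q below 0.05 in each of the 6 comparisons for scaffold chromosomes X, 1, 2 and 4, with the number called over the number tested written above X. The X stands at 35.3% in testes (12 of 34) and 16.7% in male heads (5 of 30), and at 6.67% between male and female heads (2 of 30).

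Heads of males and females differed at 2 X-assigned genes, both lower in males. LOC101890498 stood at 77.0 and 138.9 FPKM in YM and IIIM male heads. In the CSaY and CS female libraries it stood at 293.05 and 141.3 FPKM. In FPKM not adjusted for the scale of the sexes, IIIM males thus nearly reached the CS female library. On the means of both strains LOC101890498 was 2.01-fold lower in males. LOC101891018 stood at 6.02 and 6.68 FPKM in YM and IIIM male heads and at 33.7 and 4.36 FPKM in CSaY and CS female heads. That call rests on the CSaY female library, since the CS female library lay below both male groups in FPKM not adjusted for scale. No X-assigned gene was called higher in male heads.

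The share called was 6.67% of 30 tested genes, beside 13.3% of the 9679 genes tested. All calls were lower in males, at 6.67% beside 11.2%, and 0% were higher, beside 2.12%. The strain columns of the sexes differ in scale: the log2 fold change of the means, male minus female, had a median of 0.31 over all tested genes, whereas 1087 of the authors' 1292 calls were lower in males. The median was 0.43 over the 30 X-assigned genes, or 0.12 above that of all genes, and 0.33 on chromosomes 1, 2 and 4. On the same unadjusted scale both male groups lay above both female libraries in 26 of the 41 genes (63.4%), against 47.6% of genes on chromosomes 1, 2 and 4, and below them in 2 (4.88%, against 10.3%). None of these differences between chromosomes was tested.

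Testis and ovary separated the X-assigned genes into 2 blocks, with 16 genes higher in testis and 14 higher in ovary. LOC101888253 averaged 1281 FPKM in testis and 5.90 FPKM in ovary over the strains, 217.1-fold higher in testis. LOC101892507 averaged 170.3 FPKM in testis and 0.319 FPKM in ovary (q = 0.0375 in the authors' deposited table). Listed at 0 in both ovary libraries were 5 of the genes higher in testis: LOC101891874 at 48.6 FPKM in testis, LOC101892340 at 26.6 FPKM, LOC101892855 at 23.9 FPKM, LOC101891713 at 10.06 FPKM and LOC101892860 at 2.15 FPKM. Since 0 may also stand for an estimate that failed, no fold is given against it. Among genes X by both assignments, LOC101887559 was 14.1-fold higher in testis. LOC101890049 stood at 9.73 and 10.4 FPKM in YM and IIIM testes and at 0.129 and 0.205 FPKM in CSaY and CS ovaries, a log2 fold change of 3.25 on the FPKM + 1 scale. LOC101892220, at 1.48 and 12.6 FPKM in YM and IIIM testes, was at 0.209 and 0.213 FPKM in CSaY and CS ovaries. Folds of these low ovary levels depend on the pseudocount and, for LOC101892220, on the strain. Also higher in testis were LOC101890327 (12.0 FPKM in testis and 0.371 FPKM in ovary), LOC101890498 (8.89-fold), LOC101889883 (4.67-fold), LOC101891825 (2.71-fold) and 2 copies of the 15-copy group.

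Lower in testis than in ovary was LOC101891999, at 9.52 and 9.72 FPKM in YM and IIIM testes and 97.2 and 100.01 FPKM in CSaY and CS ovaries, 10.2-fold lower on the means. LOC101892048 averaged 100.7 FPKM in testis and 183.2 FPKM in ovary, LOC101890893 46.9 FPKM in testis and 85.0 FPKM in ovary, LOC101891655 30.2 FPKM in testis and 55.1 FPKM in ovary, and LOC101889711 35.4 FPKM in testis and 54.7 FPKM in ovary. Of these 5 genes, 4 are among those whose ortholog lies on another element, and LOC101890893 is X by both assignments. The other 9 genes higher in ovary belong to the 15-copy group. LOC101892683 was not called, with 197.2 and 107.7 FPKM in YM and IIIM testes and 1.67 FPKM in CSaY ovaries, and listed at 0 in CS ovaries (q = 0.148 in the authors' deposited table). LOC101889606 was not called at 117.8 FPKM in testis and 80.7 FPKM in ovary.

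In all 30 of 35 tested genes were called (85.7%), beside 73.6% of the 10586 genes tested. Higher in testis were 45.7%, beside 32.4% of all tested genes, and higher in ovary were 40.0%, beside 41.3%. The median log2 fold change of the means, testis minus ovary, was 0.83, beside 0.11 on chromosomes 1, 2 and 4 and 0.23 over all tested genes. The median depends on which X-assigned genes are taken. It was 2.95 over the 21 tested genes outside the 15-copy group and -0.70 over the 14 tested copies of the group. Over the 10 tested single-copy genes it was -0.04, beside -0.23 over tested single-copy orthologs on chromosomes 1, 2 and 4.

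**Figure D4:**
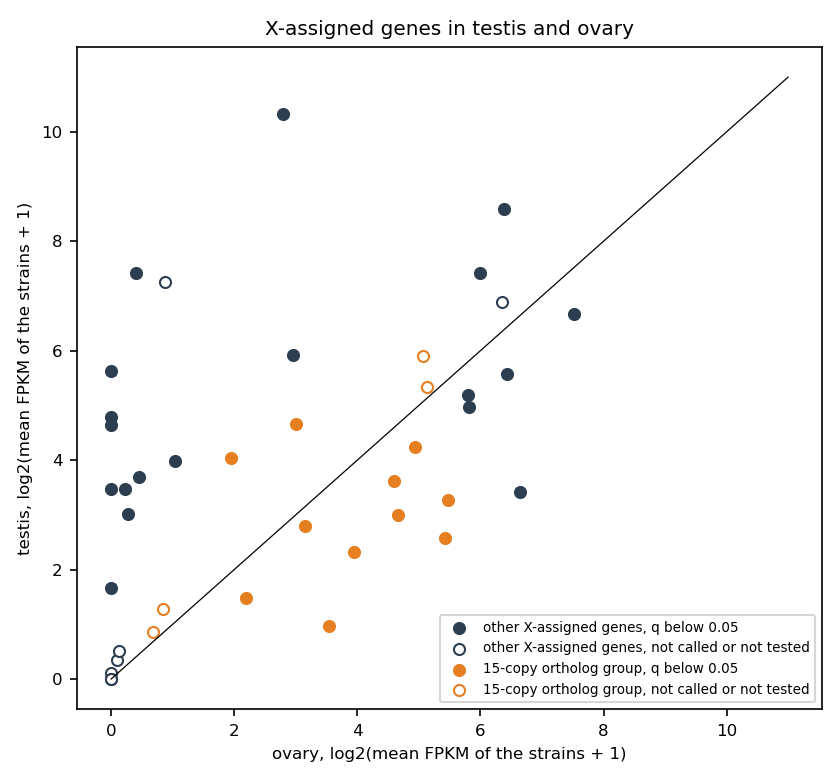
Level of each X-assigned gene in testis (vertical) and ovary (horizontal) as log2 of the mean FPKM of the strains + 1, with the line of equal level, filled where q lies below 0.05. Copies of the 15-copy group lie mostly below the line, 9 of 14 tested called higher in ovary, beside 41.3% of all tested genes. The other X-assigned genes lie mostly above it, 14 of 21 tested called higher in testis, beside 32.4% of all tested genes.

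The 15-copy group leaned to ovary. Its summed level was 189.8 and 214.6 FPKM in YM and IIIM testes, 276.5 and 276.3 FPKM in CSaY and CS ovaries, 77.9 and 76.7 FPKM in YM and IIIM male heads, and 77.3 and 57.7 FPKM in CSaY and CS female heads. The sums of the ovary libraries were thus nearly equal. In testes the sum was carried by few copies: LOC101893704 made up 29.0% of it in YM and 29.0% in IIIM testes, and the 3 highest copies 62.3% and 58.7%. In ovaries the highest copy made up 16.6% of the sum in the CSaY and 15.2% in the CS library. In CSaY female heads LOC101891018 made up 43.6% of the sum, and without that copy the sums were 43.6 and 53.3 FPKM in CSaY and CS female heads.

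Copies side by side differed in their tissue. In testis 2 copies were called higher than in ovary, LOC101890333 at 15.5 FPKM in testis and 2.84 FPKM in ovary and LOC101891361 at 24.3 FPKM in testis and 7.0 FPKM in ovary, on the means of the strains. LOC101893704 stood at 58.6 FPKM in testis and 32.5 FPKM in ovary and just missed the threshold (q = 0.05003 in the authors' deposited table). The deepest falls in testis were those of LOC101893369, at 4.97 FPKM in testis and 41.9 FPKM in ovary, LOC101890503, at 0.952 FPKM in testis and 10.6 FPKM in ovary, and LOC101890846, at 8.6 FPKM in testis and 43.3 FPKM in ovary. LOC101890333 and LOC101890503 are next to each other on the scaffold and stood on opposite sides. LOC101890333 was 5.45-fold higher in testis than in ovary on the means, from 6.03 FPKM in YM and 24.9 FPKM in IIIM testes, and LOC101890503 was 11.1-fold lower. Both testis groups lay above both ovary libraries in 5 copies and below them in 8, and 2 overlapped. Of genes on chromosomes 1, 2 and 4, 49.0% lay above and 35.5% below in the same way.

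In heads the copies ranged between 0.254 and 10.5 FPKM in YM males and between 0.235 and 10.8 FPKM in IIIM males. In female heads they reached 33.7 FPKM in the CSaY library (LOC101891018) and 8.13 FPKM in the CS library. Both male groups lay above both female libraries in 12 of the 15 copies, against 47.6% of genes on chromosomes 1, 2 and 4 on the same scale, and none of these 12 was called. Between males of the strains 2 copies were called, both in testes: LOC101893025 on NW_004765193, 1.69-fold higher in YM testes, and LOC101890333 on NW_004765840, 4.13-fold lower. That share, 2 of 13 tested copies (15.4%), lies near the 13% of all genes, and outside the group 10 of 21 tested X-assigned genes were called (47.6%).

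**Figure D5:**
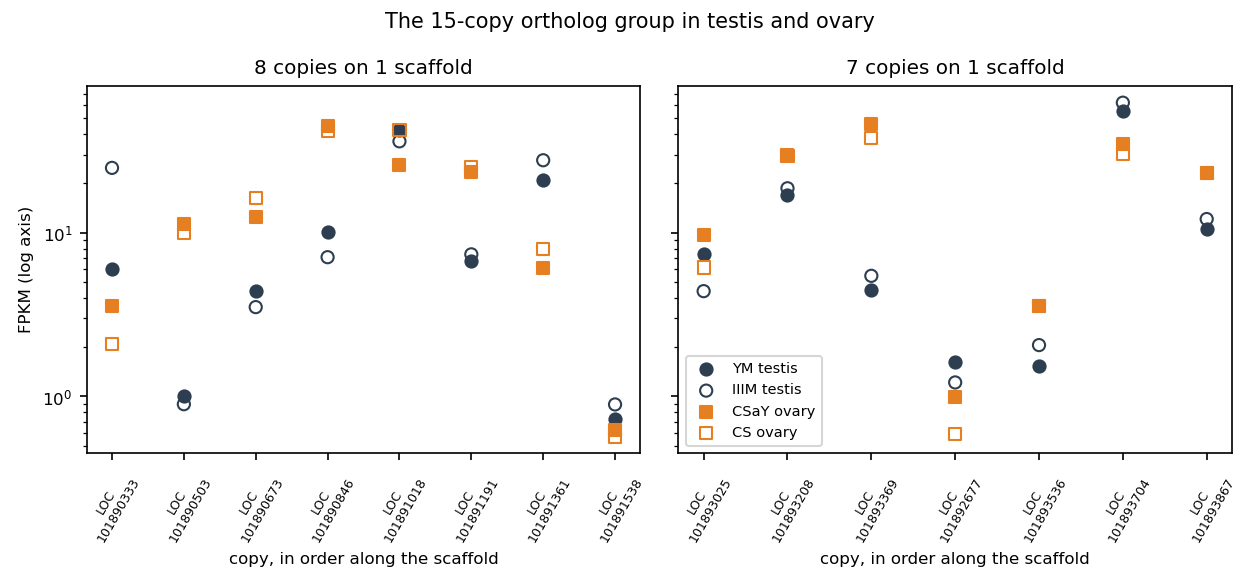
FPKM on a log axis of each copy of the 15-copy ortholog group in YM testes, IIIM testes, CSaY ovaries and CS ovaries. Copies are in order along the scaffold that holds 8 copies (left) and the scaffold that holds 7 (right). LOC101893369 and LOC101892677 have the same positions, so the order between them is arbitrary. Both ovary values lie above both testis values in 8 copies (35.5% of genes on chromosomes 1, 2 and 4) and below both in 5 (49.0%).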

How the data were processed

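PolyA RNA (TRIzol and RNeasy extraction, TruSeq libraries) was sequenced, per the labels' protocols. Named in the submitters' processing notes are Cufflinks 2.2.1, TopHat2 2.0.8b, Bowtie2 2.1.0.0 and CASAVA 1.8.2, with neither roles nor a genome build given in the sources used here. Per the file headers, FPKM were computed by the authors per group, in 8 columns by strain. A further 4 FPKM columns, which the headers tie to no strain, were left out, so the planned comparison of such columns with strain means was not run. The q values of 6 comparisons are those of the authors' deposited table, where a missing q marks an untested gene, and the sign of the authors' test statistic, a score, gave the direction of sex calls (where it is no number, the means did). FPKM keep no read count, so depth is unknown.

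Log2 fold changes used a pseudocount of 1 FPKM and run YM minus IIIM, CSaY minus CS, male minus female and testis minus ovary. Sex comparisons use the mean of the strain columns of each tissue, and folds are ratios of FPKM. The statistic and the means differed in sign for 10 of 1256 calls in heads and 10 of 7009 in gonads, and for 0 X-assigned genes. No test was added. Nothing says whether libraries of a group came from separate flies, so the authors' q may measure technical spread. Gene names come from RefSeq (assembly GCF_030504385.1), used for names only, and positions were read from the locus column deposited by the authors. Named are genes called in any strain comparison, the 5 most abundant in each tissue, the 5 largest changes in each direction of each sex comparison and genes whose assignments differ. Others named (copies of the 15-copy group, near misses, genes X by both assignments) were chosen after their values were seen, and the genes and lists were chosen with earlier results of these data known. Calls and folds were checked on simulated data. Values were computed in Python 3.11.15 with pandas 2.3.3, numpy 2.4.6 and scipy 1.17.1, and drawn with matplotlib 3.10.9.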

Additional observations from a re-analysis of the deposited data

How the results depend on the processing

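The 50 called values of single X-assigned genes kept their direction in all 100 alternatives run (a pseudocount of 0.1 and subtraction of the median of all genes). Counts and medians moved with which genes were taken as X. Requiring 2-fold left calls at 6 of 34 tested genes in testes and 3 of 30 in male heads. The shares of all tested genes at 2-fold were not computed. Taking the chromosome by ortholog gave 4 of 28 tested genes called in testes (14.3%, beside 13% of all tested genes), 3 of 27 in male heads (11.1%, beside 9.25%) and 0 of 27 in female heads, and medians of 0.091 in testes, 0.22 in male heads, 0.089 in female heads, 0.28 between male and female heads and -0.83 between testis and ovary. Genes X by both assignments gave 2 calls in testes, 2 in male heads, 0 in female heads, 0 between heads of the sexes and 5 between gonads, each of 6 tested genes, with medians of -0.25 in testes, 0.053 in female heads, 0.80 between heads of the sexes and 2.84 between gonads. Subtracting the median of all genes gave medians of 0.12 between heads of the sexes and 0.60 between gonads. The following were chosen after seeing the data. Outside the 15-copy group 0 of 17 tested genes were called in female heads, 1 of 17 between heads of the sexes and 19 of 21 between gonads. Of all tested genes 0.772%, 13.3% and 73.6% were called in these comparisons. The medians outside the group were 0.13 in female heads and 2.95 between gonads. Scaffolds with no ortholog of another element hold 4 genes. Of those tested, 1 of 2 was called in testes, 1 of 3 in male heads and 0 of 3 in female heads. Between heads of the sexes 0 of 3 were called, and between gonads 1 of 2. Single-copy orthologs gave 3, 2, 0, 0 and 9 calls in the same order, each of 10 tested genes. Of all tested genes 13%, 9.25%, 0.772%, 13.3% and 73.6% were called. Of tested single-copy orthologs on chromosomes 1, 2 and 4, 7.61%, 5.32%, 0.556%, 10.2% and 75.6% were called. Medians of the X-assigned single-copy orthologs were -0.092 in male heads, 0.19 in female heads, 0.67 between heads of the sexes and -0.036 between gonads. Those on chromosomes 1, 2 and 4 had medians of -0.0047, 0.0054, 0.34 and -0.23 in that order. These settings take fewer or other genes. No paired analysis was possible because the table holds 1 value per group and no value per library, and for that reason leaving out replicates was not run. Depth is unknown, so no limit from counting can be given.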

Other observations

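Single-copy orthologs of element F genes that the table does not place on the X by scaffold number 22. In male heads 18 of 21 tested had a positive log2 fold change of YM minus IIIM, with a median of 0.26, and 1 was called, LOC101897628, higher in YM heads, beside 9.25% of all tested genes. In testes 19 of 22 were positive, with a median of 0.11, and 2 were called (9.09%, beside 13% of all tested genes), LOC101893160 higher and LOC101894766 lower in YM testes. On chromosomes 1, 2 and 4 2270 of 4834 tested genes were positive in male heads and 2590 of 5241 in testes. In females 13 of 21 were positive in heads and 13 of 21 in ovaries, in single libraries. Between gonads 20 of 22 were called, 3 with testis and 17 with ovary higher, beside 32.4% and 41.3% of all tested genes. These counts were noticed after the values were seen, and no test was run.

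A gene at the end of scaffold NW_004765840, LOC101889492 at positions 6 to 1350, has no chromosome in the table although the scaffold's other 12 genes are X-assigned. It stood at 96.3 FPKM in YM and 60.9 FPKM in IIIM male heads (authors' deposited table, q = 0.00864), and at 67.6 and 58.8 FPKM in the CSaY and CS female head libraries.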
